A study of Mus musculus with 16 samples.

Results

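Mitochondria import most of their proteins unfolded and fold them inside the matrix with chaperones, and they remove damaged or unassembled proteins with proteases that use ATP. In the mitochondrial unfolded protein response, stress inside the organelle is signalled to the nucleus and the genes of these chaperones and proteases are transcribed more. Dopaminergic neurons of the substantia nigra pars compacta (SNc) fire autonomously and take up Ca2+ into their mitochondria while doing so, which is why the state of mitochondrial quality control in these neurons is of interest. The genes described here are 10 members of this system, chosen by name: the matrix chaperone genes Hspd1, Hspe1, Hspa9 and Trap1, the matrix protease genes Lonp1, Clpp and Clpx, and the inner membrane protease genes Afg3l2, Spg7 and Yme1l1. All 10 were found by symbol among the 25006 gene identifiers counted. The comparison asked whether their mRNA levels changed when the pore-forming subunit of the mitochondrial Ca2+ uniporter, Mcu, was deleted from dopaminergic neurons.

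RiboTag was used to collect the mRNA: ribosomes of 1 cell type carry a tag and are pulled down with the mRNA bound to them. There were 8 control mice of genotype DAT-Cre +/-, called wild type here, and 8 MCU-KO mice of genotype DAT-Cre+/- MCU fl/fl, with 1 library per mouse. Mice of both groups carried 1 DAT-Cre allele, received a Cre-dependent AAV9 vector with the tagged ribosomal protein in the SNc, were 45 days old and were sampled 30 days after the injection. Cre was driven from the dopamine transporter gene, so that Mcu deletion and tagging were both directed to cells that use this gene. The wild-type mice came from a cross of DAT-Cre and C57/BL6 mice and were not littermates of the MCU-KO mice, and hence breeding and genotype cannot be told apart. Levels are given as normalized counts (reads counted per gene, divided by a size factor for each library), and fold changes with 95% confidence intervals come from the quasi-likelihood test of edgeR. Adjusted p values are by Benjamini-Hochberg over all genes tested.

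Between 14129527 and 22016362 reads per mouse were counted on genes. Mcu had between 120.3 and 828 normalized counts in wild type, with a median of 401.0, and between 5.82 and 410.1 in MCU-KO, with a median of 246. The groups overlapped for Mcu (log2 fold change -1.19, 95% confidence interval -2.41 to 0.04, unadjusted p = 0.0569 by edgeR). The targeted gene itself was thus not called by the test that is applied to the 10 genes below. Counts over the whole gene do not separate exons that Cre removes from exons that it leaves. The paper checked the deletion in other ways, by quantitative PCR of Mcu on RiboTag mRNA and by imaging of mitochondrial Ca2+, and reports both as reduced in MCU-KO. The summed level of 11 dopaminergic marker genes was between 259864 and 336493 normalized counts in wild type and between 226247 and 383235 in MCU-KO. Markers of other cells were also present. The 8 oligodendrocyte markers summed to between 57024 and 110757 in wild type and between 68305 and 129942 in MCU-KO. In the same order, the 8 astrocyte markers summed to between 6861 and 13454 and between 9175 and 18205. The 8 microglia markers summed to between 999 and 3223 (median 1859) and between 1018 and 5855 (median 3161). The 9 markers of other neurons summed to between 4515 and 8995 and between 3987 and 9807. The 5 endothelial markers summed to between 145 and 678 (median 393) and between 124 and 419 (median 269). None of these markers was at 0 in all mice of a group. Their part in the results below was not tested beyond a fit with a glial covariate, in which 0 of the 10 genes were called. As 0 were also called without it, this count cannot show whether these markers had a part. With the covariate, the log2 fold change of Afg3l2 went from -0.31 to -0.17 and that of Hspd1 from 0.04 to 0.12. That of Clpp stayed at -0.06, and the sign turned for Trap1, Hspa9 and Hspe1. In such bulk samples, fewer cells of a type and less RNA per cell cannot be told apart.

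None of the 10 genes passed the test between genotypes. All 10 had enough counts to be tested, and an adjusted p under 0.05 by edgeR was reached by 0 of them and by 22 of 12390 genes tested, or 0.178%. Of the 10 genes, 0 were called higher in MCU-KO, beside 0.0888% of all genes tested, and 0 lower, beside 0.0888%. DESeq2 called 0 of the 10, beside 0.578% of all genes. At an unadjusted p under 0.05 there was 1 gene, Yme1l1, by edgeR, by DESeq2 and by limma-voom. The share of all genes tested at this limit was 4.41% by edgeR. The lowest adjusted p among the 10 genes was 1.00 by edgeR, 0.770 by DESeq2 and 0.701 by limma-voom. The genotypes overlapped in normalized counts for all 10, as they did for all but 0.258% of the genes tested. The median log2 fold change of the 10 genes was -0.03, beside 0.003 over all genes tested, with 4 genes above 0 and 6 below, beside 49.6% of all genes tested below 0. For 8 of the 10 genes the interval excluded a change of 1 log2 unit or more, up or down, as it did for 51.8% of all genes tested, and the interval reached slightly beyond 1 for Spg7 and Yme1l1.

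**Figure D1:**
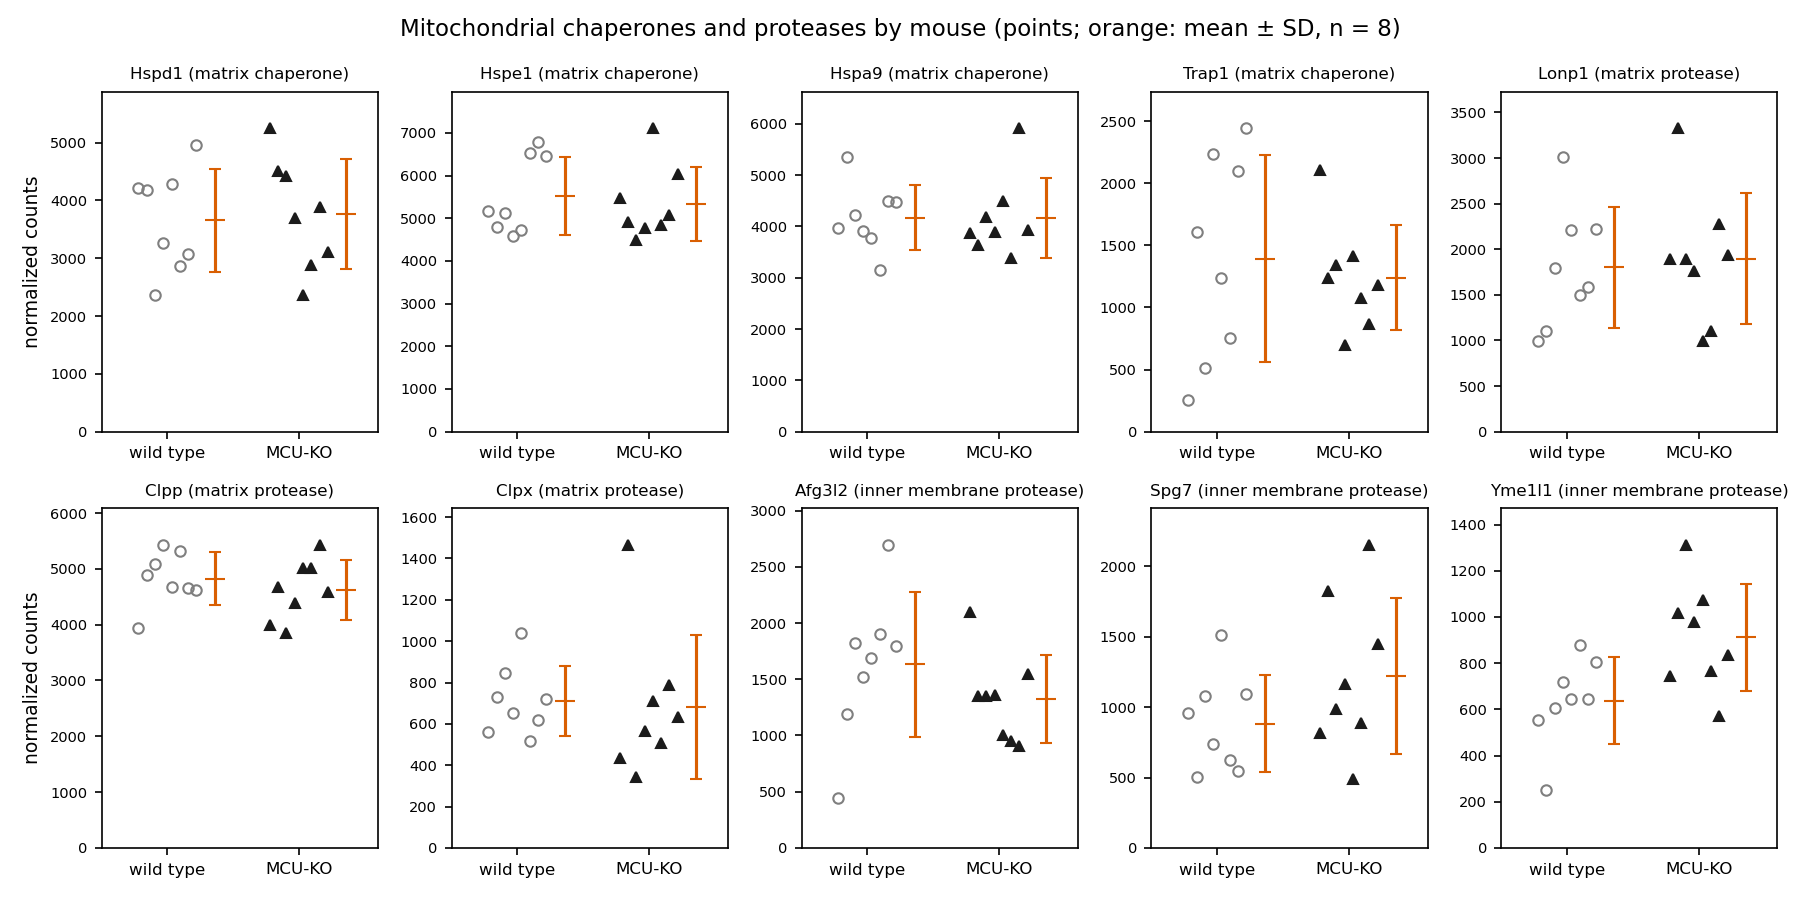
Normalized counts (vertical axis, linear and starting at 0) of the 10 genes in each of the 8 wild-type (open circles) and 8 MCU-KO (filled triangles) mice, with mean ± SD in orange. The genotypes overlap in all 10 panels, Trap1 has the widest spread in wild type relative to its mean (256.2 to 2441) and Clpp the narrowest (3935 to 5434).

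Hspd1 and Hspe1 encode the chaperonin and the co-chaperonin that together form the folding chamber of the matrix. They lie head to head on chromosome 1 (GRCm38), Hspd1 at 55077835 to 55088243 on the minus strand and Hspe1 at 55088132 to 55091307 on the plus strand, and so share the region between their starts. The RefSeq start of Hspe1 is at 55088148. Hspd1 has 2 RefSeq starts, at 55087932, 216 bases before that of Hspe1 on the plus strand, and at 55088243, 95 bases after it. Between the starts at 55087932 and 55088148, from which the genes are read outward, lie letters of the classical binding element of the heat shock factors, inverted TTC and GAA triplets. The 30 bases around them are shown because they lie in the promoters of both genes (RefSeq, GRCm38.p6, chr1:55088053-55088082, plus strand, 5′ to 3′). The capitals mark the 18 bases of overlapping heat shock elements, which lie 89 to 72 bases before the start of Hspe1.
Hspd1/Hspe1: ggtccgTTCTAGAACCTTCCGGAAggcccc

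Among the promoters of the 10 genes (250 bases before to 50 bases after a RefSeq start), 9 promoters of 8 genes could be matched. The element GAANNTTC, which reads the same on both strands, was in 2 of these 9 promoters, those of Hspe1 and of the Hspd1 start at 55087932, and in 7.86% of 32851 mouse promoters. These 2 promoters overlap and both contain the stretch shown, so the same site is counted in each. The other orientation, TTCNNGAA, overlaps it in the stretch shown and was in 3 of 9, and in 8.52% of all promoters. The 3 were the same 2 overlapping promoters, which again share their sites, and that of Clpp. The counts of 2 and 3 are thus not counts of independent promoters. A CCAAT box was in 3 of 9 (the other Hspd1 start, Yme1l1 and Clpx) and in 37.4% of all. The ATF4/CHOP element TGATGCAAT, searched like the CCAAT box on both strands, was in 0 of 9 and in 0.192% of all promoters. These are matches of letters only.

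Hspd1 had between 2369 and 4957 normalized counts in wild type, with a median of 3728, and between 2356 and 5246 in MCU-KO, with a median of 3786. Both groups covered nearly the same range, and 4 of the 8 MCU-KO mice were above the wild-type median. On the log2 scale, MCU-KO minus wild type was 0.04 (95% interval -0.30 to 0.39). Hspe1 had between 4592 and 6791 in wild type, with a median of 5139, and between 4489 and 7106 in MCU-KO, with a median of 4990.5. Its log2 fold change was -0.05 (-0.29 to 0.18). In both genes, 1 MCU-KO mouse was above and 1 was below every wild-type mouse.

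The levels of these genes carry a limit from sequence shared with other genes. Of all stretches of 50 bases in Hspd1 transcripts, 42.1% also occur in transcripts of other annotated genes, most of them (38.0%) in the pseudogene Hspd1-ps3, and for Hspe1 the share was 22.8%. The pseudogenes themselves are not among the genes counted. Hspd1 and Hspe1 also share 112 bases of exon on opposite strands, which is 4.24% of the exon bases of Hspd1 and 7.60% of those of Hspe1. The strand setting of the counting is not given in the sources used here, so reads from this overlap may have been assigned to either gene or to neither. The share was at most 2.81% in the other 8 genes.

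The chaperonin and its co-chaperonin work as one machine, and whether their mRNA levels rise and fall together from mouse to mouse was examined. No correlation between them passed the test. Over the 16 mice, Pearson's r of log2 CPM was -0.36 (permutation p = 0.170, adjusted over 4 pairs 0.341) and Spearman's rho -0.34 (permutation p = 0.201). Without the 2 mice farthest from the median of Hspd1, r was -0.24 (permutation p = 0.394). Within wild type r was -0.11 (exact permutation p = 0.80) and within MCU-KO it was -0.62 (exact permutation p = 0.103). MCU-KO mouse 5, with the lowest Hspd1 level of its group (2356), had the highest Hspe1 level (7106).

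**Figure D2:**
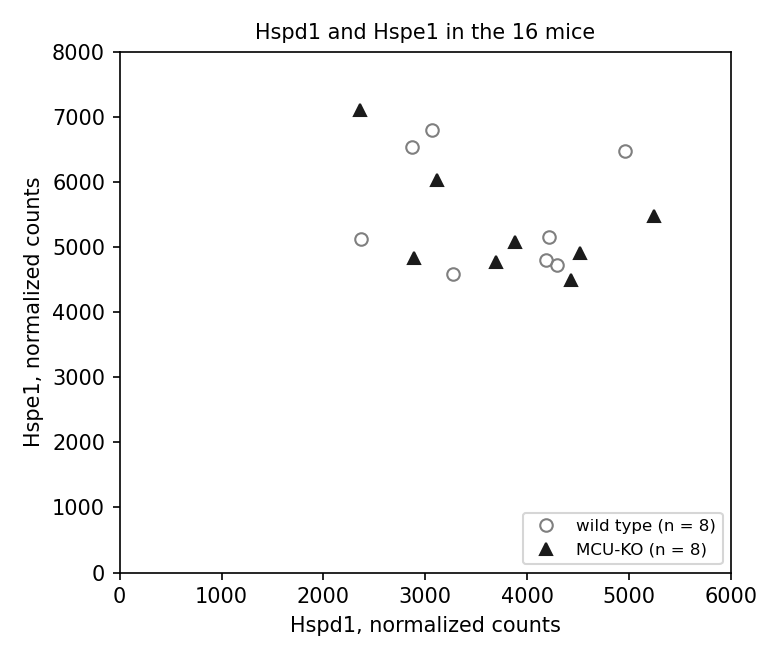
Normalized counts of Hspd1 (horizontal axis) and Hspe1 (vertical axis) in the 8 wild-type (open circles) and 8 MCU-KO (filled triangles) mice, 1 point per mouse, both axes linear and starting at 0. The points do not follow a rising line (r = -0.36 on log2 CPM over 16 mice), and the genotypes are intermingled.

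Hspa9 encodes the matrix Hsp70 (mortalin), which pulls proteins in through the inner membrane and holds them for folding, and it lies on chromosome 18 at 34937414 to 34954357. It had between 3158 and 5348 normalized counts in wild type, with a median of 4098, and between 3389 and 5909 in MCU-KO, with a median of 3903. The means, 4171 ± 641 and 4159 ± 780.1 (SD, n = 8 each), nearly coincided, and the log2 fold change was -0.004 (-0.25 to 0.25). The highest value of all mice belonged to MCU-KO mouse 7, and 3 of 8 MCU-KO mice were above the wild-type median.

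Trap1 encodes the Hsp90 of the matrix and lies on chromosome 16 at 4039971 to 4077827. It was the most variable of the 10 genes in wild type, where it ran from 256.2 in mouse 1 to 2441 in mouse 8, with a median of 1423 and a coefficient of variation of 59.8%. In MCU-KO it ran from 700 to 2103, with a median of 1209 and a coefficient of variation of 34.0%. A log2 fold change of -0.17 had a wide interval (-0.88 to 0.55), and 2 wild-type mice were below and 2 above every MCU-KO mouse. Only 1 of 8 MCU-KO mice was above the wild-type median. The fitted dispersion of Trap1 was 2.28 times that of genes of like abundance, the highest such ratio of the 10 genes.

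Lonp1 encodes the Lon protease, which degrades oxidized and misfolded matrix proteins, and lies on chromosome 17 at 56614297 to 56626887. It had between 994 and 3012 normalized counts in wild type, with a median of 1692, and between 994 and 3326 in MCU-KO, with a median of 1893. The difference between genotypes was a log2 fold change of 0.08 (-0.42 to 0.57). Of the MCU-KO mice, 6 of 8 were above the wild-type median, yet the ranges of the groups began at the same level.

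Clpp and Clpx encode the barrel and the ATP-driven unfoldase of the other soluble matrix protease. Clpp, on chromosome 17 at 56990305 to 56996188, had between 3935 and 5434 normalized counts in wild type, with a median of 4775, and between 3858 and 5427 in MCU-KO, with a median of 4629. It was the steadiest of the 10 genes, with a coefficient of variation of 9.82% in wild type and 11.6% in MCU-KO. Its interval was the narrowest as well (log2 fold change -0.06, -0.26 to 0.13). Clpx, on chromosome 9 at 65294260 to 65330658, had between 517 and 1041 in wild type, with a median of 685, and between 343 and 1467 in MCU-KO, with a median of 600.2. The MCU-KO maximum came from mouse 2, while 3 MCU-KO mice were below every wild-type mouse. Clpx had a log2 fold change of -0.06 (-0.62 to 0.50).

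The barrel gene had more counts than the unfoldase gene in every library, although its exons are shorter (1223 against 3494 bases). The log2 ratio of Clpp to Clpx counts was 2.79 ± 0.35 in wild type and 2.88 ± 0.55 in MCU-KO (SD, n = 8 each). The difference of 0.09 was within the spread between mice (exact permutation test of the genotype labels, two-sided, p = 0.705, adjusted over 4 pairs 0.729). Across the 16 mice the levels of both genes had an r of 0.42 (permutation p = 0.104, adjusted 0.341), a rho of 0.39 (permutation p = 0.128) and an r of 0.17 without the 2 mice farthest from the median of Clpp (permutation p = 0.555). Within wild type r was 0.05 (exact permutation p = 0.912) and within MCU-KO it was 0.58 (exact permutation p = 0.132). The log2 ratio of Hspd1 to Hspe1 was -0.62 ± 0.45 in wild type and -0.53 ± 0.54 in MCU-KO (exact permutation p = 0.729, adjusted 0.729).

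The inner membrane proteases are AAA enzymes that extract and degrade membrane proteins. AFG3L2 and paraplegin, the product of Spg7, face the matrix and build the m-AAA protease together, whereas YME1L1 faces the intermembrane space as the i-AAA protease and cleaves, among others, the fusion protein OPA1. These were the 3 genes with the largest fold changes of the 10, in opposite directions, and none passed the test.

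Afg3l2, on chromosome 18 at 67404764 to 67449172, had between 442 and 2698 normalized counts in wild type, with a median of 1742, and between 909 and 2099 in MCU-KO, with a median of 1352. Only 1 of 8 MCU-KO mice was above the wild-type median, but wild-type mouse 1 was far below all other mice. The log2 fold change was -0.31 (-0.83 to 0.22). It ran from -0.45 without wild-type mouse 1 to -0.16 without wild-type mouse 7 when each mouse was left out in turn, with adjusted p values of at least 0.893 by edgeR, and it was -0.17 with a glial covariate.

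Spg7, on chromosome 8 at 123062942 to 123097760, had between 502 and 1509 normalized counts in wild type, with a median of 847, and between 490 and 2154 in MCU-KO, with a median of 1075. Of the MCU-KO mice, 6 of 8 were above the wild-type median and 2 above every wild-type mouse, while 1 was below them all. This gave a log2 fold change of 0.47 (-0.11 to 1.06).

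Yme1l1, on chromosome 2 at 23156369 to 23199260, had between 253 and 879 normalized counts in wild type, with a median of 646, and between 570 and 1313 in MCU-KO, with a median of 906. Of the MCU-KO mice, 7 of 8 were above the wild-type median and 4 above every wild-type mouse. The log2 fold change was 0.52, or 1.43-fold, with an interval of 0.02 to 1.01 that began just above 0. Its unadjusted p of 0.0413 became an adjusted p of 1.00 over all genes tested (edgeR), and the gene thus did not pass the test.

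**Figure D3:**
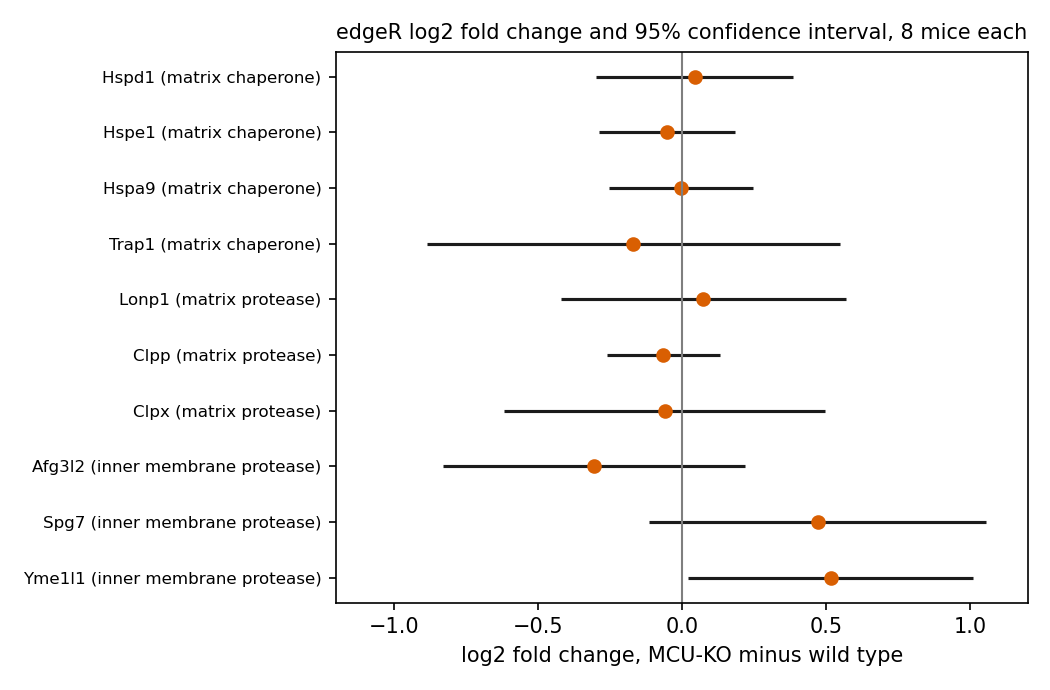
Log2 fold change of each gene, MCU-KO minus wild type (horizontal axis), as points with the 95% confidence interval as lines, from edgeR on 8 against 8 mice. The intervals of 9 genes include 0 and that of Yme1l1 runs from 0.02 to 1.01, with the narrowest interval at Clpp (-0.26 to 0.13) and the widest at Trap1 (-0.88 to 0.55).

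A ratio of counts within a library does not depend on how libraries are scaled. The log2 ratio of Yme1l1 to Afg3l2, the i-AAA against the m-AAA protease, had a mean of -1.29 ± 0.78 in wild type and of -0.53 ± 0.50 in MCU-KO (SD, n = 8 each). It ran from -2.23 to 0.32 in wild type, with a median of -1.27, and from -1.49 to 0.10 in MCU-KO, with a median of -0.45. The ratio was above the wild-type median in 7 of 8 MCU-KO mice, and the difference was 0.76 with an SE of 0.33, or 1.70-fold (exact permutation test, two-sided, p = 0.0384). Adjusted over the 4 pairs, p was 0.154, and the difference did not pass the test. Leaving out any of the other 15 mice gave adjusted exact p values from 0.0709 to 0.296. Only without wild-type mouse 1, which had the highest ratio of all mice, did the difference pass (0.99, exact permutation p = 0.00249, adjusted over 4 pairs 0.00995). This mouse had the lowest level of Afg3l2 among all 16, and also the lowest of Trap1. Its level of Lonp1 was the lowest as well, but nearly equal to that of MCU-KO mouse 5 (994 normalized counts in both).

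The log2 ratio of Afg3l2 to Spg7, the partners in the m-AAA protease, was 0.84 ± 1.02 in wild type and 0.20 ± 0.81 in MCU-KO. The difference of -0.64 with an SE of 0.46 was within the spread between mice (exact permutation p = 0.188, adjusted 0.376). No correlation of these partners across the 16 mice passed the test either (r -0.15, permutation p = 0.597, and rho -0.14, permutation p = 0.608). For Yme1l1 and Afg3l2 r was 0.16 (permutation p = 0.532) and rho 0.08 (permutation p = 0.762).

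**Figure D4:**
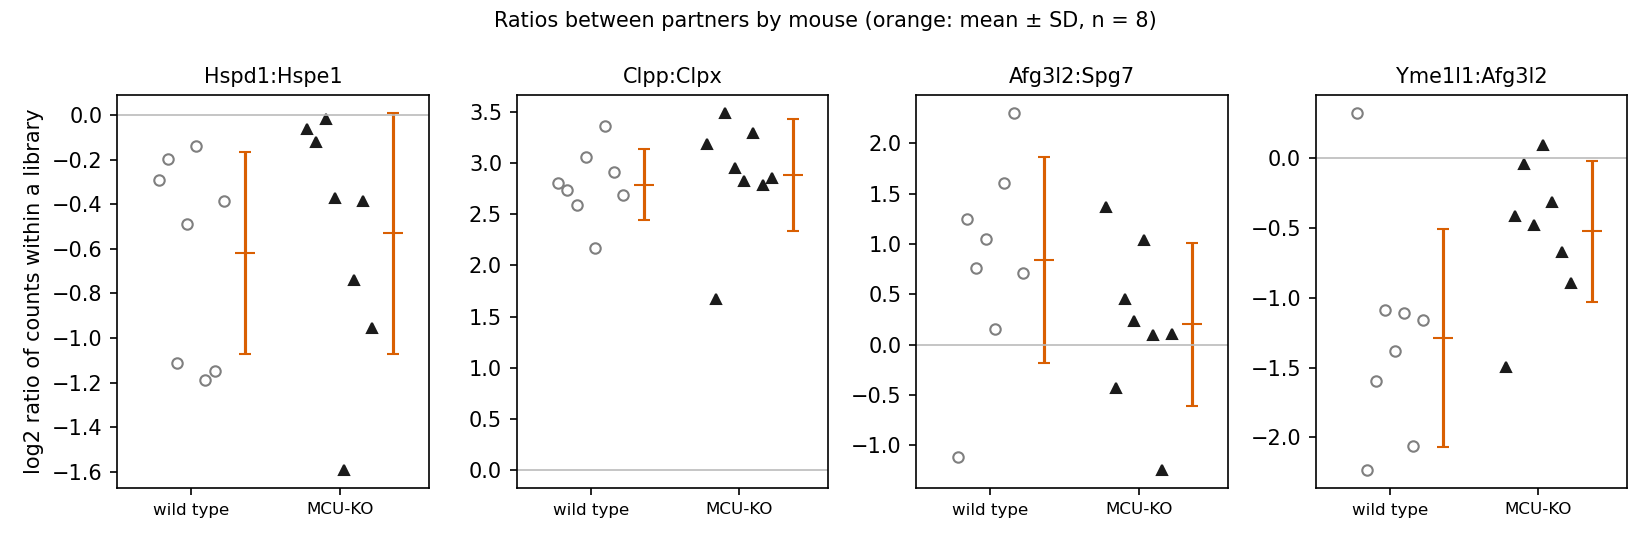
Log2 ratio of the counts of 4 pairs of partner genes within each library (vertical axis, a separate scale in each panel) for 8 wild-type (open circles) and 8 MCU-KO (filled triangles) mice, with mean ± SD in orange. The ratio of Yme1l1 to Afg3l2 has the largest difference between means (0.76), with wild-type mouse 1 at 0.32 above all MCU-KO mice.

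Levels of different genes were compared per kilobase of exon in the 8 wild-type mice. The most abundant transcripts were those of Clpp (3947 ± 388 normalized counts per kb, SD) and Hspe1 (3747 ± 619), followed by Hspd1 (1383 ± 335) and Hspa9 (968 ± 149). Trap1 (541 ± 324) and Lonp1 (412 ± 152) were intermediate. Clpx (203 ± 48.4), Spg7 (195 ± 76.1), Afg3l2 (165 ± 65.2) and Yme1l1 (79.6 ± 23.5) were lowest, so that the means of the inner membrane proteases and the Clp unfoldase were below those of all matrix chaperones.

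Of the 9 steps between neighbours in this order, 5 had a mean log2 ratio that differed from 0 (exact sign-flip permutation test, two-sided, Benjamini-Hochberg adjusted over the 9 steps). The order was taken from the means of the same 8 mice, so the pairs and their directions come from the values tested. The largest was from Hspe1 down to Hspd1, with a log2 ratio of 1.46 ± 0.45, found in 8 of 8 mice (adjusted exact p = 0.0234). Both genes carry the limit from shared sequence given above, with 42.1% of stretches shared in Hspd1 and 22.8% in Hspe1. Its part in the steps that involve these genes was not tested. The step from Hspa9 to Trap1 (1.15 ± 1.10) and from Lonp1 to Clpx (0.97 ± 0.51) also went the same way in 8 of 8 mice (adjusted exact p = 0.0234 for both). Hspd1 was above Hspa9 in 7 of 8 (0.49 ± 0.36, adjusted exact p = 0.0281), and Afg3l2 above Yme1l1 in 7 of 8 (0.99 ± 0.78). The steps between Clpp and Hspe1, Trap1 and Lonp1, Clpx and Spg7, and Spg7 and Afg3l2 did not pass this test. Their log2 ratios ran from 0.09 ± 0.28 for the first pair to 0.29 ± 1.02 for the last. With the length of the longest transcript in place of all exons, the order changed and 3 of 9 steps passed. They were those from Clpp to Hspd1, from Hspa9 to Trap1 and from Clpx to Yme1l1. Of the 5 steps above, only that from Hspa9 to Trap1 was among them. The steps from Hspe1 to Hspd1, Lonp1 to Clpx and Afg3l2 to Yme1l1 were no longer between neighbours and were not tested at these lengths. The step from Hspd1 to Hspa9 was then lost (0.12 ± 0.36, 5 of 8 mice, adjusted exact p = 0.457), Hspe1 came before Clpp, and Afg3l2 came before Spg7 and Clpx, at a mean of 350.2 normalized counts per kb. The merged exons of Afg3l2 (9874 bases) are much longer than its longest transcript (4664 bases).

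**Figure D5:**
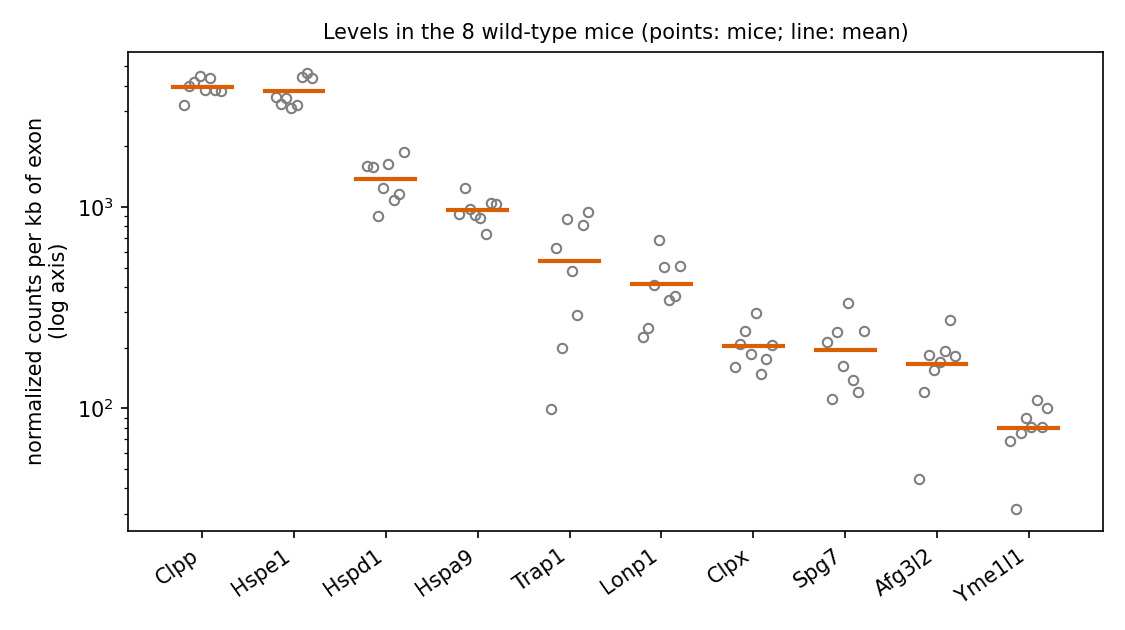
Normalized counts per kb of exon (vertical axis, log scale) of the 10 genes in the 8 wild-type mice (open circles, mean as an orange line), in descending order of the mean. Clpp (3947) and Hspe1 (3747) lead and Yme1l1 (79.6) is lowest.

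Summed, the 10 genes had between 21048 and 29607 normalized counts in wild type, with a median of 25202, and between 21415 and 27961 in MCU-KO, with a median of 24950. This sum was 0.107% to 0.154% of all counts in wild type and 0.115% to 0.144% in MCU-KO. The groups covered nearly the same range. Wild-type mouse 8 was above the median of all mice in 9 of the 10 genes, and MCU-KO mice 4 and 6 in 2 each.

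Among the 45 pairs of the 10 genes, Pearson's r of log2 CPM over the 16 mice had a median of 0.13, with 28 pairs above 0, as a description of values from the same libraries. It was highest for Trap1 and Afg3l2 (0.61) and for Lonp1 and Spg7 (0.61), and lowest for Hspd1 and Clpp (-0.58). Over all genes tested, the genes most like Hspd1 by the same measure over 16 mice were Plekhm1 (0.82), Sncaip (0.82) and Trmt13 (0.81). Those most like Hspa9 were Cdh20 (0.78), Suv39h1 (0.75) and Numbl (0.74). These genes were picked as the highest among 12390 genes over only 16 mice. Whether such values exceed what chance gives in a search of that size was not tested.

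The rest of the quality control system was followed in 49 further genes, of which 48 were tested. None had an adjusted p under 0.05 by edgeR, DESeq2 or limma-voom, beside 0.178% of all genes tested by edgeR. At an unadjusted p under 0.05 there were 3 by each of the 3 tools, beside 4.41% of all genes tested by edgeR. They were Atp23, Maip1 and Eif2ak2 by edgeR and DESeq2, and Oma1, Atp23 and Eif2ak2 by limma-voom. Oma1, a stress-activated inner membrane protease, is named here after its values were seen. The median log2 fold change was -0.08, with 17 genes above 0 and 31 below, beside 49.6% of all genes tested below 0. The same 49.6% stands beside the counts for each list that follows. The 10 cofactors of the matrix chaperones had a median of -0.05, with 2 above 0 and 8 below. Grpel1, the nucleotide exchange factor of the matrix Hsp70, had the highest level per kb among them (884 ± 165) and a log2 fold change of -0.09. Timm44, which tethers this Hsp70 to the import channel, had the smallest p of the cofactors (log2 fold change -0.44, -0.94 to 0.06).

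The 15 other proteases and processing peptidases had a median of -0.08, with 4 above 0 and 11 below. Atp23, a metallopeptidase that processes an ATP synthase subunit in yeast, had between 188 and 753 normalized counts in wild type, with a median of 369, and between 75.6 and 386 in MCU-KO, with a median of 175. Its log2 fold change was -0.88 (-1.72 to -0.03, adjusted p = 1.00 by edgeR), and 1 of 8 MCU-KO mice was above the wild-type median. Immp1l, a subunit of the inner membrane peptidase, had the highest level per kb of the list (804 ± 339) and a log2 fold change of -0.17.

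The 7 scaffolds and regulators of the inner membrane proteases had a median of -0.10, with 2 above 0 and 5 below. Maip1 encodes a partner of the m-AAA protease that guards the assembly of the uniporter subunit EMRE. It had between 302 and 651 normalized counts in wild type, with a median of 478, and between 386 and 961 in MCU-KO, with a median of 681. Its log2 fold change was 0.55 (0.01 to 1.08, adjusted p = 1.00 by edgeR), and 7 of 8 MCU-KO mice were above the wild-type median. Stoml2, a prohibitin-like scaffold on which YME1L1 is held, had the highest level per kb (1127 ± 163) and a log2 fold change of -0.22.

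Stress signalling to the nucleus was covered by 17 genes, of which 16 were tested. Their median was 0.07, with 9 above 0 and 7 below. Eif2ak2, the kinase that senses double-stranded RNA and phosphorylates eIF2alpha, had between 46.2 and 239 normalized counts in wild type, with a median of 170, and between 105 and 773 in MCU-KO, with a median of 413. Of the MCU-KO mice, 7 of 8 were above every wild-type mouse. Its log2 fold change was 1.52 (0.56 to 2.47), with an adjusted p of 0.615 by edgeR and 0.0720 by DESeq2, and it did not pass the test by either. Ubl5, a ubiquitin-like protein with a part in this response in worms, had the highest level per kb (3128 ± 389) and a log2 fold change of -0.14.

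The 20 relatives of the chaperones in the cytosol and endoplasmic reticulum were followed as well. None had an adjusted p under 0.05 by edgeR, DESeq2 or limma-voom, beside 0.178% of all genes tested by edgeR. At an unadjusted p under 0.05 there was 1, Cct5, by each of these, beside 4.41% of all genes tested by edgeR. Their median log2 fold change was -0.01, with 10 above 0 and 10 below. Cct5, a subunit of the cytosolic chaperonin, had between 6617 and 9024 normalized counts in wild type, with a median of 7940, and between 5955 and 7617 in MCU-KO, with a median of 6772, and 0 of 8 MCU-KO mice were above the wild-type median. Its log2 fold change was -0.24 (-0.42 to -0.06), with an adjusted p of 0.892 by edgeR. Hsp90ab1, the constitutive cytosolic Hsp90, had the highest level per kb (14964 ± 1764) and a log2 fold change of -0.05.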

How the data were processed

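RNA-seq libraries of RiboTag mRNA from 8 control (wild type) and 8 MCU-KO mice were analysed. Per the paper's methods and the submitters' processing notes, the authors trimmed reads with Trim Galore and cutadapt, aligned the reads with STAR (mm10) and deposited whole-number HTSeq counts per gene, not normalized. Versions, annotation release and strand setting are not given in the sources used here. Library totals make 3 counts equal to 0.136 to 0.212 CPM, and this limit covers counting error only.

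Counts were tested with edgeR 4.0.16 (filterByExpr, TMM, quasi-likelihood test, threshold 0.05) in R 4.3.3 over 12390 genes. Normalized counts used the size factors of DESeq2 1.42.0. Ratios used a pseudocount of 1 count, log2 CPM a prior count of 2, and pooled correlations 100000 permutations. Alternatives were DESeq2, limma 3.58.1, other normalizations and filters, a block, marker covariates and the omission of each mouse. Exon lengths came from GENCODE M21 (24942 of 25006 identifiers matched), and promoters from RefSeq. The fits were tested on simulated data, in which many of the smaller changes were not called. Among the 56 pairs of libraries compared, none were duplicates, and not every pair was compared. Besides the 10 genes, those named were Mcu, the genes most like Hspd1 and Hspa9, and, for every list, any gene past the threshold, that with the smallest p and that with the highest level. Other tools were Python 3.11.15, numpy 2.4.6, pandas 2.3.3 and matplotlib 3.10.9. The 10 genes and all lists were chosen with earlier results of these data known.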

Additional observations from a re-analysis of the deposited data

Results flagged for a closer look

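In groups of 8 mice, a highest or lowest mouse was marked where its gap to the nearest other mouse, divided by the range of the group, exceeded Dixon's 95% critical value. This was met in 5 of 30 groups examined, where chance marks about 1 in 20, or 1.5. Hspa9 was highest in MCU-KO mouse 7, at 5909 normalized counts, apart from the other MCU-KO mice. Clpx was highest in MCU-KO mouse 2, at 1467 normalized counts, and the log2 ratio of Clpp to Clpx of the same mouse, 1.67, was the lowest of its group. The log2 ratio of Yme1l1 to Afg3l2 was highest among wild-type mice in mouse 1, at 0.32. The total count of MCU-KO mouse 8, 14129527, was the lowest of its group.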

How the results depend on the processing

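Over 9 other settings of the fit, none of the 10 genes passed the threshold, nor did any when each mouse was left out in turn. The lowest adjusted p was 0.334 in the former and 0.893 in the latter. Of 90 log2 fold changes of the 10 genes under the other settings, 84 kept their direction. The sign turned for Trap1 with limma-voom (0.083), with the replicate block (0.022) and with a glial marker covariate (0.012), for Hspa9 with at least 10 counts in every mouse (0.0019) and with the glial covariate (0.023), and for Hspe1 with the glial covariate (0.015), and the cause was not tested. Leaving out a mouse turned 16 of 160 values, in genes near 0: Hspd1 ran from -0.036 to 0.12, Hspa9 from -0.095 to 0.059, Lonp1 from -0.089 to 0.22 and Clpx from -0.32 to 0.041. Yme1l1 stayed between 0.52 and 0.57 under the other settings and between 0.40 and 0.60 with a mouse left out (unadjusted p by edgeR 0.0218 to 0.0989). The difference in the ratio of Yme1l1 to Afg3l2 ran from 0.63 to 0.99 with a mouse left out. Genes called numbered 22, with 90 by DESeq2 and 18 to 24 with a mouse left out. With longest transcript lengths the order of levels changed. Then 3 steps passed, of which only that from Hspa9 to Trap1 was also among the 5 of the main setting.

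Mouse numbers occur in both groups, but same-numbered mice did not deviate together (correlations of -0.06 to 0.03 over 8 numbers, and no mouse correlated best with its own number). With the mouse number as a replicate block, 14 genes were called, none of the 10 among them.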
